A study of Mus musculus with 2 samples.

Results

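The CXCR3 and CXCR6 chemokine axes were examined in MC38 tumours through 5 genes taken by symbol from the 31053 features of the count tables: the ligand genes Cxcl9, Cxcl10 and Cxcl16 and the receptor genes Cxcr3 and Cxcr6. MC38 is a mouse colon carcinoma line, here grown under the skin of the flank of C57BL/6 mice. One group received SHP099, an inhibitor of the phosphatase SHP2, at 5 mg/kg into the stomach each day for 14 days, starting 5 days after injection when tumours averaged 100 mm3. The control group received PBS over the same days and is also labelled untreated. No genetic change is named for either group. There were 6 mice in each group but only 1 library per group, and the sources used here do not give the number of tumours behind a library. A difference between the libraries therefore has no replicate check. The intervals given are 95% intervals that cover counting error only, and no test was made.

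CXCL9 and CXCL10 are secreted chemokines that draw activated T cells and NK cells through the receptor CXCR3. Cxcl9 is induced mainly by interferon-gamma, while Cxcl10 answers to type I interferon and to NF-kappaB as well. CXCL16 is made as a membrane protein that can be shed by the proteases ADAM10 and ADAM17, and it binds CXCR6, a receptor found on effector, memory and tissue-resident T cells. Cxcl11, the third CXCR3 ligand gene, was not analysed here.

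Cxcl9 and Cxcl10 are neighbours on the minus strand of chromosome 5 in GRCm38, Cxcl9 at chr5:92321347-92328079 and Cxcl10 at chr5:92346638-92348889. Both are annotated as protein coding. The 250 bases before each start are shown because these 2 neighbouring genes differed between the libraries in opposite directions in phagocytes. The sequences are those of RefSeq for GRCm38.p6, 5′ to 3′ on the minus strand, at chr5:92328080-92328329 and chr5:92348890-92349139. Capitals mark matches to 3 motifs searched on both strands: the core of the interferon-stimulated response element (GAAA, any 2 bases, GAAA), the gamma-activated sequence (TTCNNNGAA), and a kappaB-like motif (GGG, any 5 bases, CC).
Cxcl9 promoter: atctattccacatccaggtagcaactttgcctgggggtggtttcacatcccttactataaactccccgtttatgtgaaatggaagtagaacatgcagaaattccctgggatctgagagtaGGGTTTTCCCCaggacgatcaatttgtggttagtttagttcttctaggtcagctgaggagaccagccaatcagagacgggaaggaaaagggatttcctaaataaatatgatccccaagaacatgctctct
Cxcl10 promoter: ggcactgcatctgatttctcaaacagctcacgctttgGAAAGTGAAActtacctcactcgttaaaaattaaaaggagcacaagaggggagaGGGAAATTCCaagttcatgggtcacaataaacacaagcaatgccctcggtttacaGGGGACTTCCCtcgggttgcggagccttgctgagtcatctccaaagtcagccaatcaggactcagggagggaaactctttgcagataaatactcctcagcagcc

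The Cxcl10 window held 1 match to the response element core, from -213 to -204 relative to the start, and the Cxcl9 window held none. This motif occurred in 3.04% of 27025 promoter windows of the same length. Matches to the kappaB-like motif lay at -130 to -120 in Cxcl9, where 2 matches on opposite strands overlap, and in Cxcl10 at -159 to -150 and at -104 to -94, the latter again 2 overlapping matches. That motif is common, at 45.37% of windows. Neither window held TTCNNNGAA, which occurred in 7.18% of windows. A match is a description of the letters and not evidence of binding. Only these fixed patterns were searched, so a window without a match may still hold an interferon or kappaB element in other letters. Of the 5 genes, 4 had an entry among the RefSeq promoters. The remaining genes lie at chr11:70453983-70459984 (Cxcl16, minus strand), chrX:101731535-101734269 (Cxcr3, minus strand) and chr9:123806475-123811760 (Cxcr6, plus strand).

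The control library held 8245 barcodes and 126218180 UMIs (unique molecular identifiers, 1 for each RNA molecule captured), and the SHP099 library 8263 barcodes and 112901642 UMIs. After filters, 7688 and 7702 cells remained, and 90 barcodes among them occurred in both libraries. Without those barcodes, the log2 ratios of SHP099 over control given later would be 1.63 for Cxcr3 in T cells, -0.85 for Cxcl9 and 0.56 for Cxcl10 in phagocytes. Cells were placed in classes by marker genes. Macrophage and monocyte clusters, joined as phagocytes, held 2675 control and 2766 SHP099 cells, at a median of 4329 and 4202.5 UMIs per cell. T cells numbered 526 and 400, at medians of 2364.5 and 2036 UMIs. Cells of clusters nearly without Xist, the RNA that marks cells with an inactive X chromosome, numbered 4183 and 4295, at medians of 24305 and 20152 UMIs. These Xist-negative cells carried the tumour marker Hmga2 at 108 and 82.4 CPM (the class's UMIs of a gene in each 1000000 of its UMIs), but the epithelial marker Epcam was at 0, so they are called by their Xist level. Smaller classes were NK cells (99 and 54), dendritic cells (78 and 79), fibroblasts (83 and 50), endothelial cells (34 and 53) and plasmacytoid dendritic cells (10 and 5). The 5 genes and the gene lists described here were kept out of the genes used for clustering.

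The 3 ligand genes came from different classes. Cxcl16 was a phagocyte transcript, with 93.4% of its UMIs in phagocytes in control and 93.5% in SHP099. Cxcl10 UMIs lay mostly in Xist-negative cells, at 92.7% and 89.3%, and phagocytes held 6.23% and 9.77%. Cxcl9 was split between both classes. Phagocytes held 49.1% of Cxcl9 UMIs in control and 38.5% in SHP099, while Xist-negative cells held 42.1% and 53.7%. Such shares follow cell number and depth as well as level, and an Xist-negative cell gave several times more UMIs than a phagocyte. Of the receptor genes, Cxcr6 was a T cell transcript, with 92.1% and 91.8% of 454 and 377 UMIs in T cells. Cxcr3 gave only 54 and 88 UMIs, of which T cells held 42.6% and 52.3% and phagocytes 40.7% and 37.5%.

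**Figure D1:**
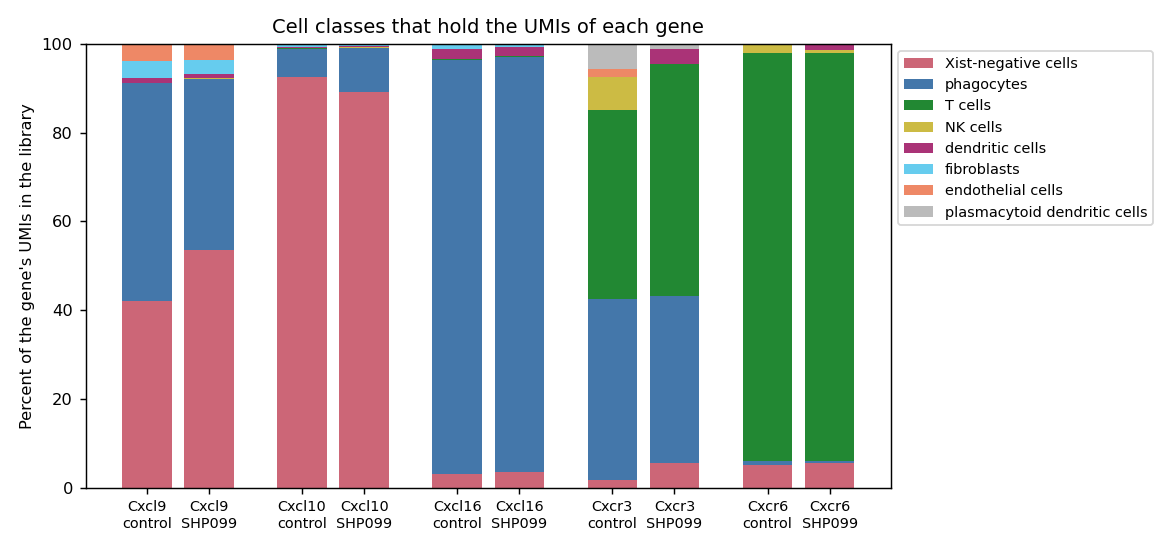
Bars show the percent of each gene's UMIs held by each cell class, 1 bar per gene and library. Cxcl16 is almost wholly phagocyte and Cxcr6 almost wholly T cell in both libraries, while the phagocyte part of Cxcl9 is 49.1% in control and 38.5% in SHP099.

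**Figure D2:**
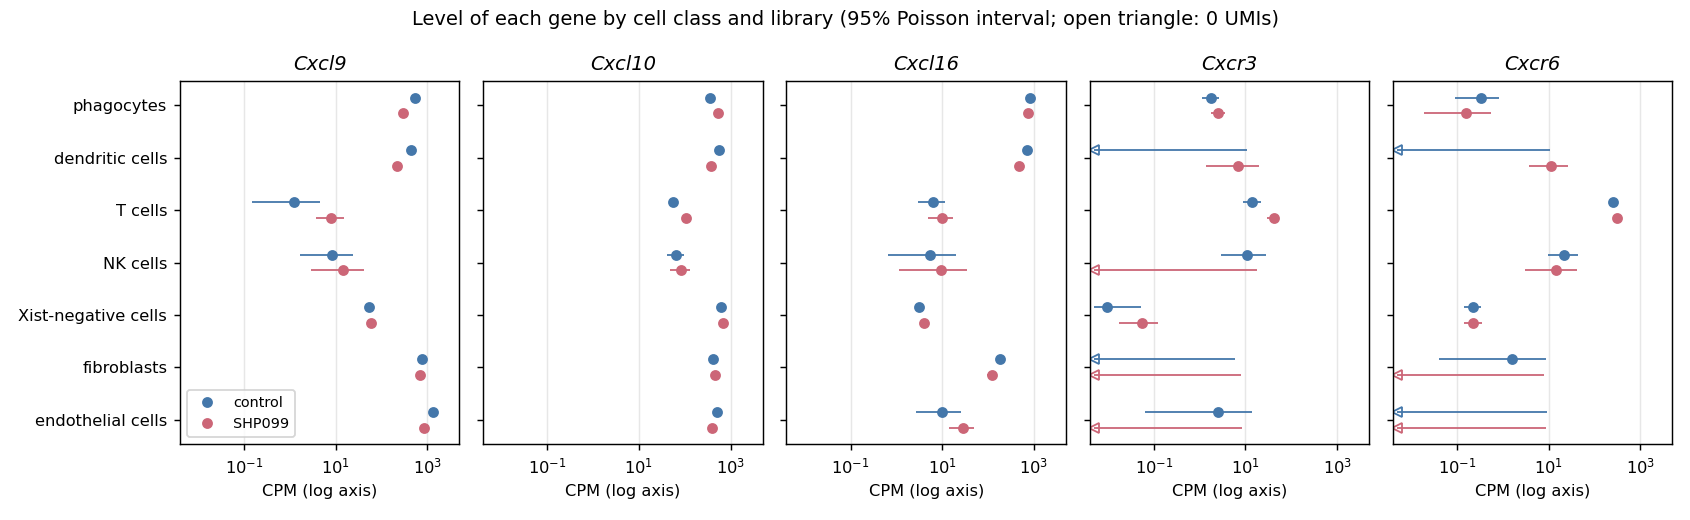
Each panel plots 1 gene's level in CPM on a log axis for 7 cell classes, with control and SHP099 as separate points and exact Poisson intervals. Cxcl9 points lie to the left in SHP099 in phagocytes, dendritic cells and endothelial cells, and the Cxcr3 point of T cells lies to the right.

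The order of the classes differed by gene. For Cxcl9 in control it ran from endothelial cells (1330 CPM) through fibroblasts (786) and phagocytes (537) to dendritic cells (438), then Xist-negative cells (54.4), with NK and T cells under 10 CPM. In SHP099 the order was the same, but the intervals of endothelial cells and fibroblasts overlapped. For Cxcl10 the control order was Xist-negative cells (631 CPM), dendritic cells (550), endothelial cells (519), fibroblasts (420) and phagocytes (359), and each of the first 3 overlapped in interval with the next. In SHP099 phagocytes came next after Xist-negative cells, at 531 against 684 CPM, with fibroblasts at 463, overlapping in interval with phagocytes. For Cxcl16 phagocytes (817) and dendritic cells (727) overlapped in control, and phagocytes (745) lay above dendritic cells (485) in SHP099, with fibroblasts the next class in both.

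In phagocytes Cxcl9 was lower and Cxcl10 higher in the SHP099 library. Cxcl9 stood at 537 CPM in control (interval 524 to 550.0) and 298 CPM in SHP099 (289 to 308), a log2 ratio of SHP099 over control of -0.85 (-0.91 to -0.79). Cxcl10 stood at 359 CPM (349 to 370.2) and 531 CPM (519 to 544), a log2 ratio of 0.56 (0.51 to 0.62). None of these intervals overlap between the libraries. Cxcl16 was close in both, at 817 and 745 CPM, with a log2 ratio of -0.13 (-0.17 to -0.09). Over all 6861 phagocyte genes at 10 CPM or more in either library, 1.69% were at least 1.5-fold lower and 4.01% at least 1.5-fold higher, 5.70% in all. Of the 3 ligand genes that reached 10 CPM, Cxcl9 alone passed the 1.5-fold mark, on the lower side, and Cxcl10 at 1.48-fold did not. The receptor genes were under 10 CPM in this class.

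Fewer phagocytes had a Cxcl9 UMI in SHP099, and more had a Cxcl10 UMI. After each cell was drawn down to 2000 UMIs, Cxcl9 was found in 34.7% of 2356 control cells and 22.8% of 2446 SHP099 cells, against 43.0% and 30.4% at full depth. T cells, which should lack it, showed 0.304% and 0.985%. Positive cells also held less of it, at 3.09 and 2.66 UMIs per positive cell. Its UMIs were gathered in fewer cells, since the 5% of phagocytes richest in Cxcl9 held 36.9% of them in control and 54.3% in SHP099. Cxcl10 was found in 27.5% and 35.5% of the drawn-down cells (39.6% and 47.1% at full depth), with 2.68 and 3.09 UMIs per positive cell. The T cell shares of Cxcl10 were 10.0% and 12.8%. Cxcl16 was found in 74.8% and 71.4% (83.3% and 83.4% at full depth), with a T cell background of 0.912% and 0.985%.

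The lower Cxcl9 held within each phagocyte cluster. Control phagocytes lay mostly in cluster 6 (Ly6c2, Chil3, Plac8) with 1051 cells and cluster 7 (Mmp12, Arg1, Spp1) with 916. SHP099 phagocytes lay mostly in cluster 6 with 908 cells and cluster 3 (C1qa, Ms4a7, Ccl12) with 875. Cluster 18 (Cx3cr1, Ccl12, Fcrls) went from 57 to 241 cells. Cxcl9 was highest in cluster 3, where 867 CPM in control stood against 457 CPM in SHP099 with a log2 ratio of -0.92 (-1.02 to -0.84). Cluster 6 had 578 and 290.2 CPM, a log2 ratio of -0.99 (-1.10 to -0.88). Cluster 7 had 363 and 155 CPM, a log2 ratio of -1.23 (-1.38 to -1.08). The largest difference was in cluster 18, at 698 and 262 CPM and a log2 ratio of -1.41 (-1.62 to -1.20), and the shallow cluster 15 stood at -1.12. With the 5 clusters weighted alike the log2 ratio was -1.13.

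Cxcl10 was higher in 4 of the 5 phagocyte clusters by intervals that leave out 0. Its log2 ratio was 0.54 (0.44 to 0.64) in cluster 3, where it went from 453 to 659 CPM. Cluster 18 stood at 0.37 (0.18 to 0.56), cluster 7 at 0.26 (0.12 to 0.40) and cluster 6 at 0.18 (0.08 to 0.27). Cluster 15 stood at 0.02 (-0.22 to 0.26). The pooled 0.56 exceeds every within-cluster value, and with clusters weighted alike the log2 ratio was 0.27. Cxcl16 differed less and not in 1 direction, from -0.33 in cluster 7 to 0.20 in cluster 18.

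The balance of the CXCR3 ligands can be read as Cxcl9 UMIs per Cxcl10 UMI, compared only between libraries. Cluster 3 gave 1.92 in control and 0.693 in SHP099, cluster 6 gave 1.20 and 0.535, and cluster 7 gave 1.83 and 0.651. Clusters 15 and 18 went from 0.677 to 0.307 and from 1.20 to 0.348. It was lower in SHP099 in 5 of 5 clusters, with intervals that do not overlap between libraries. In each cluster the summed type I interferon list was higher in SHP099 (1895 and 3002 CPM in cluster 3) and the summed interferon-gamma list lower (2587 and 2248 CPM there).

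**Figure D3:**
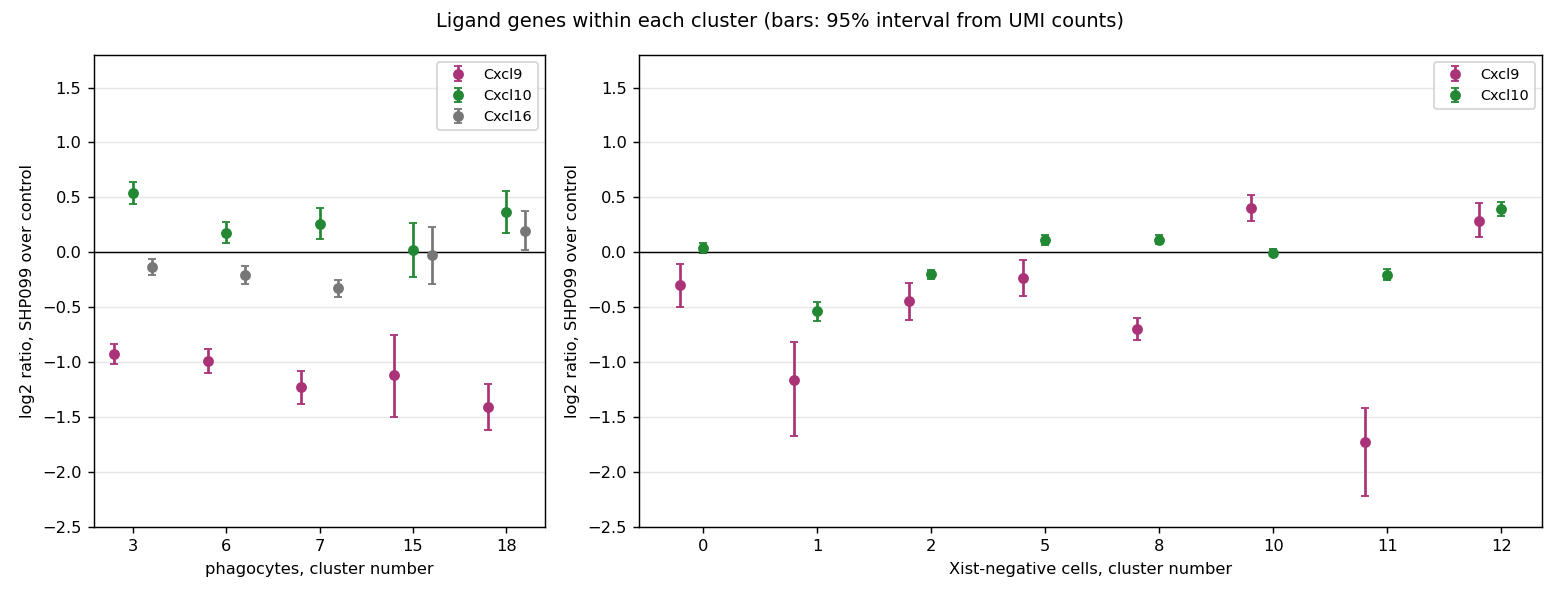
Points show the log2 ratio of SHP099 over control within each cluster of phagocytes (left) and of Xist-negative cells (right), with bars for the interval from UMI counts. Cxcl9 lies below 0 in all 5 phagocyte clusters and on both sides of 0 among the Xist-negative clusters. Cluster 14, with 2 Cxcl9 UMIs in each library, is left out.

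Cxcl10 was found somewhat more often in phagocytes with Cxcl9 than in those without it. Among drawn-down control cells with Cxcl9, 33.9% (30.7 to 37.3) also had Cxcl10, against 24.0% (21.9 to 26.3) of those without Cxcl9. In SHP099 these shares were 41.0% (36.9 to 45.3) and 33.9% (31.7 to 36.0). Cells with Cxcl9 alone numbered 540 in control and 329 in SHP099, cells with Cxcl10 alone 370 and 639, and cells with both 277 and 229. The groups with 1 ligand alone thus differed more between the libraries than the group with both. Cxcl16 was present in 80.3% of control and 78.0% of SHP099 cells with Cxcl9, and in 71.9% and 69.4% of those without.

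Genes chosen after their values were seen describe these groups. Ifit1, a type I interferon-stimulated gene, was at 154 CPM in control cells with Cxcl10 alone, 123 CPM with both, 43.5 CPM with Cxcl9 alone and 39.4 CPM with neither. The same order held between Cxcl10-positive and Cxcl10-negative groups in SHP099, at 247, 238, 89.7 and 60.5 CPM. Gbp2, a guanylate-binding protein gene induced by interferon-gamma, was instead highest where Cxcl9 was present. In control it was at 413 CPM with both, 370.4 CPM with Cxcl9 alone, 270.3 CPM with Cxcl10 alone and 164 CPM with neither, and in SHP099 at 284, 239, 160.4 and 101 CPM. Gbp2 was thus lower in SHP099 in each of the 4 groups. Other genes of the interferon-gamma list did not all share its order. In control Serpina3g did, at 199 CPM with both, 79.6 with Cxcl9 alone, 37.8 with Cxcl10 alone and 14.1 with neither. Cd274 was at 184, 112, 145 and 111 CPM in the same groups, and Gbp4 at 102.9, 43.52, 48.65 and 26.95 CPM. Ciita was at 16.25, 15.74, 16.22 and 11.98 CPM, and Nos2 at 10.83, 30.56, 10.81 and 20.53 CPM. Ly6c2, a monocyte surface marker, was lowest where Cxcl9 was present, at 379 CPM with both and 435 CPM with Cxcl9 alone in control, against 1230 CPM with Cxcl10 alone. H2-Eb1, an MHC class II gene, ran the other way in control, at 4810 and 4557 CPM against 3220 CPM.

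**Figure D4:**
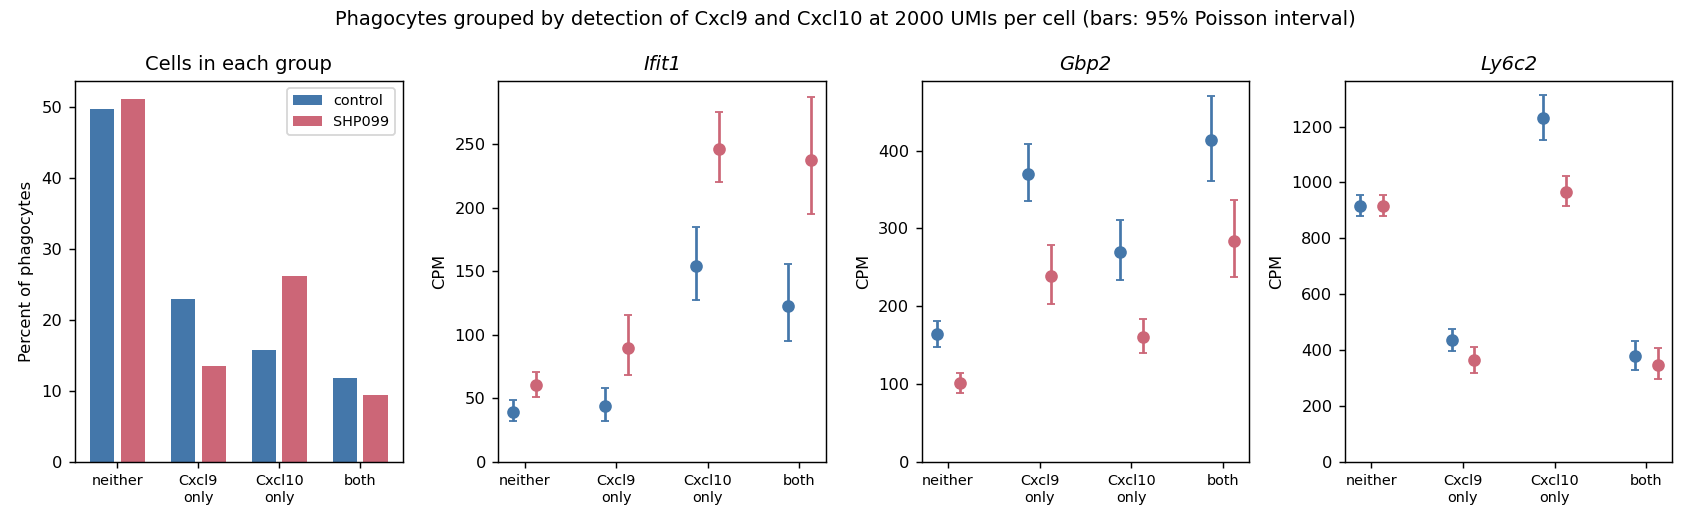
The left panel gives the percent of phagocytes, drawn down to 2000 UMIs, with neither ligand, Cxcl9 alone, Cxcl10 alone or both, and the other panels give the CPM of Ifit1, Gbp2 and Ly6c2 in those groups with exact Poisson intervals. Ifit1 is high where Cxcl10 was found, and Gbp2 is high and Ly6c2 low where Cxcl9 was found, in both libraries.

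Interferon genes were compared in phagocytes beside the ligands. Of 15 type I interferon-stimulated genes at 10 CPM or more, 9 were at least 1.5-fold higher in SHP099 and 0 as much lower, with a median log2 ratio of 0.72 against 0.05 for all genes. Ifit3 was at 1.15 (1.04 to 1.26) and Usp18, which restrains type I interferon signalling, at 1.12 (0.98 to 1.27), while Zbp1 was at -0.19. Of 17 interferon-gamma-responsive genes at that level, 0 were higher and 4 lower by that fold, with a median of -0.13. Those 4 were Nos2, the inducible nitric oxide synthase, at -1.80 (-2.33 to -1.50), Cd274, which encodes PD-L1, at -0.80 (-0.93 to -0.69), Gbp2 at -0.75 (-0.83 to -0.67) and Socs1, a brake on JAK signalling, at -0.67 (-0.86 to -0.50). Among 17 genes of interferon input Socs1 was again the only one past 1.5-fold. Irf1, the factor that carries interferon-gamma signals to many promoters, was at -0.58 (-0.71 to -0.45), Stat2 at 0.41 and Ifnar1, a chain of the type I interferon receptor, at 0.35.

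Genes that process or hold the ligands were measured beside them. Adam10 was at 82.1 and 93.4 CPM in phagocytes, a log2 ratio of 0.19 (0.07 to 0.31), and Adam17 at 63.0 and 66.7 CPM, a log2 ratio of 0.08 (-0.06 to 0.23). Of 6 such genes at 10 CPM or more, Sdc1 (-1.10) and Sdc4 (-0.60) were at least 1.5-fold lower and Mmp9 (0.80) at least 1.5-fold higher. Over all phagocyte genes at that level, 1.69% were lower and 4.01% higher by that fold. Sdc1 and Sdc4 encode syndecans, which carry heparan sulfate that binds chemokines. Mmp9 encodes a gelatinase.

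Other measures of the phagocyte class differed between the libraries too. The mitochondrial share of UMIs was 2.245% for control against 3.167% for SHP099. Haemoglobin transcripts summed to 1.95 and 156.5 CPM. The 8 T cell markers summed to 17.8 and 14.8 CPM, with 0 of 8 at 10 CPM, and the 5 neutrophil markers to 112.5 and 38.8 CPM. Their part in the ligand differences was not tested.

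The smaller antigen-presenting and stromal classes also had less Cxcl9 or a value whose interval included 0. Endothelial cells had the highest Cxcl9 level of any class, where 1330 CPM in control (1219 to 1449) stood against 849 CPM in SHP099 (764 to 941) with a log2 ratio of -0.65 (-0.84 to -0.45), from 34 and 53 cells. Fibroblasts had 786 and 690.2 CPM, a log2 ratio of -0.19 (-0.39 to 0.02). Dendritic cells, the 1 cluster led by Ccr7, Ccl22 and Cd209a, had 438 and 218 CPM, a log2 ratio of -1.01 (-1.39 to -0.63). A part of the dendritic cells had a UMI of Ccr7 or Fscn1, markers of the migratory state, and none of Xcr1 or Clec9a. There Cxcl9 was at 647 and 190 CPM, from 74 and 27 of the class's 148 and 97 Cxcl9 UMIs. The Cxcl9 UMIs of the other dendritic cells were closer in number between the libraries. Cxcl10, higher in phagocytes, was lower in dendritic cells, at 550 and 377 CPM with a log2 ratio of -0.54 (-0.85 to -0.24), and in endothelial cells, at 519 and 393 CPM with a log2 ratio of -0.40 (-0.70 to -0.10). Fibroblasts had 420 and 463 CPM, with a log2 ratio of 0.14 (-0.12 to 0.41). Dendritic cell Cxcl16 was lower as well, at 727 and 485 CPM with a log2 ratio of -0.58 (-0.86 to -0.32). Marker levels of these small classes differed too: in dendritic cells Ccr7 was at 547 and 251 CPM and C1qa at 260.1 and 357 CPM, and in endothelial cells the fibroblast marker Col1a1 was at 139 and 484 CPM and Cdh5 at 721 and 933 CPM. Their part in the chemokine values was not tested.

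Xist-negative cells carried most Cxcl10 and showed a small pooled difference that did not hold across clusters. Pooled, Cxcl10 gave 631 CPM in control (626 to 636) against 684 CPM in SHP099 (679 to 690), with a log2 ratio of 0.12 (0.10 to 0.13). It was found in 49.1% and 51.2% of drawn-down cells, and in 89.0% and 88.5% at full depth. The largest clusters were 0 and 10 in control (901 and 886 cells) and 8 and 10 in SHP099 (711 and 680 cells). Cxcl10 was highest in cluster 5, at 1755 and 1896 CPM. By intervals that leave out 0 it was higher in 3 of 9 clusters and lower in 4, from -0.85 in cluster 14, with 32 and 20 UMIs, to 0.39 in cluster 12. With clusters weighted alike the log2 ratio was -0.13.

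Cxcl9 in Xist-negative cells was far below the phagocyte level, at 54.4 CPM in control (52.9 to 55.8), and 58.7 CPM (57.1 to 60.3) in SHP099. The pooled log2 ratio was 0.11 (0.06 to 0.16), yet it was lower in 6 of 9 clusters and higher in 2. The lowest was cluster 11, at 22.2 and 6.34 CPM and -1.73 (-2.22 to -1.42), followed by cluster 1 at -1.17 (-1.68 to -0.81) and cluster 8 at -0.70 (-0.80 to -0.60). Cluster 10, led by cell division genes, stood at 0.40 (0.28 to 0.52), and cluster 12, with the fibroblast markers Dpt and Dcn among its leading genes, at 0.29 (0.14 to 0.44). With clusters weighted alike the log2 ratio was -0.45, so the direction of the pooled value rests on which clusters the cells lay in. Of the 2 ligand genes at 10 CPM or more in this class, 0 passed 1.5-fold, where 1.12% of 7035 genes were higher and 0.227% lower by that fold, 1.35% in all. Macrophage markers in these cells summed to 175 and 225 CPM, and their part in the Cxcl9 values was not tested. Cxcl16 was at 3.103 and 4.054 CPM.

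In Xist-negative cells, 5 of 13 type I interferon-stimulated genes at 10 CPM or more were at least 1.5-fold higher, with a median log2 ratio of 0.50, Ifit1 at 0.92 and Trim30a at 0.72, with Ifi205 at 0.02 and Zbp1 at -0.30. In the same cells, 0 of 14 interferon-gamma-responsive genes at that level passed this fold in either direction, with a median of -0.21, and Gbp4 at -0.48 and Gbp2 at -0.34 were the lowest. Under 10 CPM, and named after its value was seen, Ido1, which encodes a tryptophan-degrading enzyme, was lower than these, at 7.56 and 2.71 CPM (787 and 250 UMIs), a log2 ratio of -1.33. Irf7, a factor that drives type I interferon responses, was at 0.71 (0.68 to 0.76). Over all genes of this class at 10 CPM or more, 1.12% were 1.5-fold higher and 0.227% lower, with a median log2 ratio of 0.02.

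Among T cells, Cxcr3 was higher in the SHP099 library and Cxcr6 was higher by less. Cxcr3 gave 23 UMIs in 526 control T cells and 46 UMIs in 400 SHP099 T cells, which is 14.2 CPM (9.02 to 21.4) and 41.3 CPM (30.2 to 55.0). The log2 ratio was 1.503 (0.78 to 2.33). It was found in 4.18% and 9.50% of T cells, and in 3.34% (1.68 to 5.90) and 7.39% (4.19 to 11.9) after cells were drawn down to 2000 UMIs, with 11 and 15 positive cells. Xist-negative cells, which should lack the receptor, had it in 0.0239% and 0.116% at full depth and in 0 of 4106 and 0 of 4265 drawn-down cells. Cxcr6 was at 259 CPM (234 to 285) and 310.4 CPM (279 to 345), a log2 ratio of 0.26 (0.05 to 0.47). Its share of T cells was 41.4% and 45.5%, or 37.1% and 42.4% after drawing down, against 0.127% and 0.0409% of phagocytes. Of the 3 members at 10 CPM or more in T cells, Cxcr3 and Cxcl10 were at least 1.5-fold higher, where 11.0% of 6943 genes were higher and 7.10% lower by that fold, 18.1% in all.

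T cells with a Cxcr6 UMI numbered 218 in control and 182 in SHP099, although the level was higher there, and those with a Cxcr3 UMI numbered 22 and 38. T cells made up 6.84% and 5.19% of the cells.

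Cxcr3 lay mainly in subcluster 3 (Tcf7, Lef1, S1pr1, Ly6c2), which resembles naive or memory T cells, and in subcluster 6, the regulatory T cells (Foxp3, Il2ra). In subcluster 3 it was at 43.8 CPM (10 UMIs) in 118 control cells and 142.5 CPM (25 UMIs) in 106 SHP099 cells, a log2 ratio of 1.69 (0.59 to 2.92). Regulatory T cells had 49.0 and 56.3 CPM (9 and 15 UMIs), a log2 ratio of 0.20 (-1.09 to 1.57). The exhausted-like CD8 subcluster 1 gave 2 and 5 Cxcr3 UMIs, subcluster 0 (Ramp3, Tnfsf11) gave 0 and 0, and NK cells gave 4 and 0. Subcluster 3 was thus the 1 named subcluster in which the Cxcr3 interval left out 0. T cells with a CD8 gene UMI and none of Cd4 or Foxp3, a view that does not use subclusters, had 8.52 and 34.6 CPM of Cxcr3 (11 and 26 UMIs). Subcluster sizes differed between the libraries. Subcluster 0 held 108 control and 32 SHP099 cells, subcluster 1 132 and 87, and regulatory T cells 86 and 114. Pooled T cell values of both receptors also follow this make-up, and its part in them was not tested.

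In control Cxcr6 was highest in the exhausted-like CD8 subcluster 1, where 421 CPM in control stood against 437 CPM in SHP099 with a log2 ratio of 0.05 (-0.32 to 0.42). Subcluster 3 went from 193 CPM (44 UMIs) to 422 CPM (74 UMIs), a log2 ratio of 1.13 (0.57 to 1.70), and subcluster 0 from 293 to 478 CPM, a log2 ratio of 0.70 (0.12 to 1.27). Regulatory T cells had 104 and 158 CPM, a log2 ratio of 0.60 (-0.21 to 1.47), and dividing cells 188 and 251 CPM, a log2 ratio of 0.42 (-0.15 to 0.99). NK cells had little, at 8 and 3 UMIs. In control the order of levels ran from subcluster 1 through subcluster 0 to subclusters 3 and 5 and then regulatory T cells. The intervals of subclusters 3 and 5 overlapped, and those of other neighbours were not all separate, so the order is one of levels only. In SHP099 the intervals of subclusters 0, 1 and 3 overlapped. With the main T cell clusters 4 and 19, rather than the subclusters, weighted alike, the Cxcr6 log2 ratio in T cells was 0.63.

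**Figure D5:**
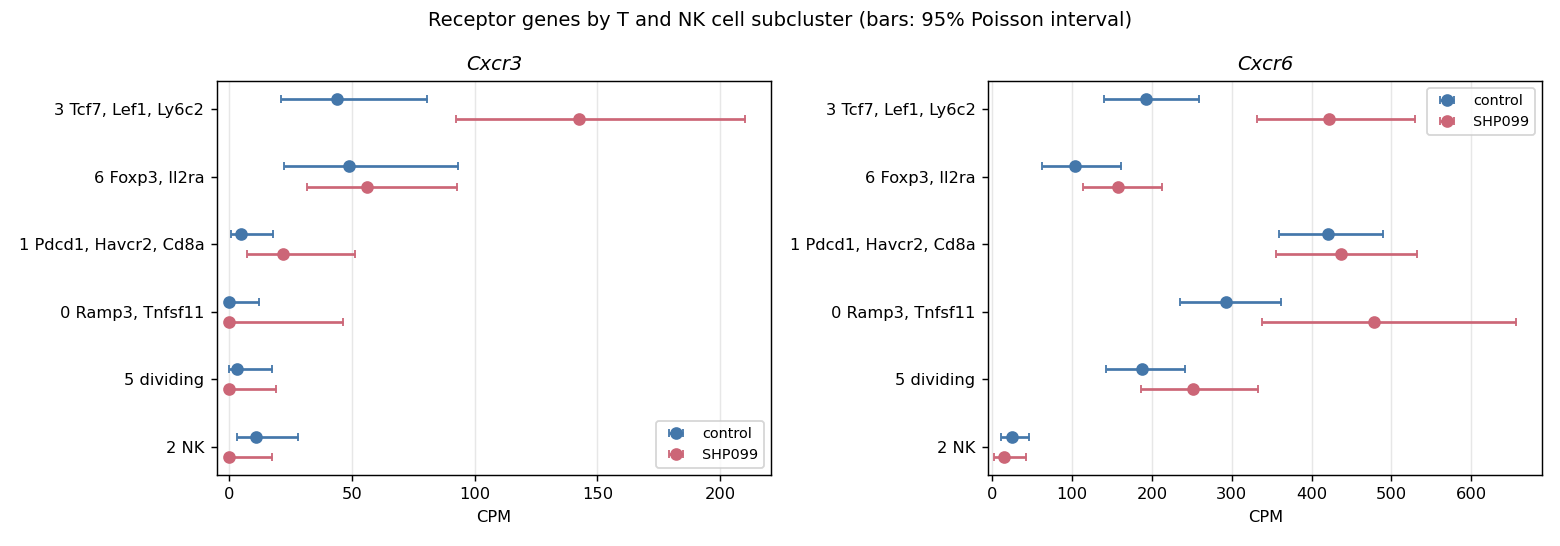
Points give the CPM of Cxcr3 (left) and Cxcr6 (right) in 6 subclusters of T and NK cells, control and SHP099 separately, with exact Poisson intervals. Subcluster 3 shows the largest difference in CPM between the libraries for both genes, and subcluster 1 shows Cxcr6 at 421 and 437 CPM.

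Few of the T cells kept after drawing down had both receptors. That step left out many cells of the subclusters in which Cxcr3 mainly lay. It kept 50 of 118 control and 22 of 106 SHP099 cells of subcluster 3, and 31 of 86 and 45 of 114 of subcluster 6. Of 329 drawn-down control T cells, 5 had both, 6 had Cxcr3 alone and 117 had Cxcr6 alone, and of 203 SHP099 T cells 6, 9 and 80. Cxcr6 was found in 45.5% of control cells with Cxcr3 (16.8 to 76.6) and in 36.8% of those without. In SHP099 the shares were 40.0% (16.3 to 67.7) and 42.6%, so co-detection was not distinguishable at this depth.

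The phagocytes that carried Cxcr3 UMIs were not marked as T cells. Phagocytes gave 22 and 33 Cxcr3 UMIs, or 1.79 and 2.54 CPM, in 22 and 28 cells, which is 0.822% and 1.01% of phagocytes. Cluster 3 held 13 and 20 of those UMIs. Of the 22 control cells 0 had a UMI of any of the 8 T cell markers, and of the 28 SHP099 cells 1 had, against 3.66% and 3.98% of phagocytes without Cxcr3. Their median number of detected macrophage markers was 9 and 8 of 10. Cxcr6 differed in this, since 3 of 4 control and 1 of 2 SHP099 phagocytes with it had a T cell marker. Plasmacytoid dendritic cells gave 3 and 1 Cxcr3 UMIs from 10 and 5 cells.

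Cxcl10 UMIs were also counted in T cells, at 56.3 CPM (45.3 to 69.1) in control and 105.0 CPM (86.8 to 126) in SHP099, a log2 ratio of 0.89 (0.49 to 1.31). It was found in 10.0% and 12.8% of drawn-down T cells (11.6% and 14.5% at full depth), with 1.15 and 1.65 UMIs per positive cell. NK cells, another class that should hold little of it, had 65.7 and 81.8 CPM, with a log2 ratio of 0.31 (-0.67 to 1.27), and shares of 7.04% and 10.8% at median depths of 2937 and 3049.5 UMIs. The intervals of both classes overlap in each library. Within T cells the log2 ratio was 1.27 (0.81 to 1.75) in cluster 4, led by Nkg7, Cd3g and Cd8b1, and -0.55 (-1.46 to 0.33) in cluster 19, led by Tnfrsf4, Ikzf2 and Icos. The dividing subcluster 5 went from 31.3 to 153.9 CPM, on 10 and 30 UMIs. Whether these UMIs came from the T cells or from free RNA was not tested. The Xist-negative marker Hmga2 in T cells was at 8.04 and 5.38 CPM and the macrophage marker C1qa at 26.6 and 41.3 CPM. Their part in these values was not tested either.

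Ifng, the gene of interferon-gamma, gave 237 UMIs in all control cells and 131 in all SHP099 cells, of which T cells held 86.5% and 89.3%. The level in T cells was 127 and 105.0 CPM, a log2 ratio of -0.27 (-0.61 to 0.06). Within subclusters the log2 ratio went both ways. It was 1.03 (0.30 to 1.73) in subcluster 0, from 108 control and 32 SHP099 cells. In subcluster 1 it was 0.66 (0.03 to 1.29), from 132 and 87 cells. In the dividing subcluster 5 it was -1.41 (-2.22 to -0.68), from 54 and 34 cells. The part of these sizes in the pooled value was not tested.

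Other T cell genes of the axes were mostly close between libraries. Over all T cell genes at 10 CPM or more, 11.0% were 1.5-fold higher and 7.10% lower, with a median log2 ratio of 0.07. The counts of each list are to be read beside these shares. Of 17 genes of receptor signalling and transcription at 10 CPM or more, Pik3cg, the kinase that acts behind chemokine receptors, was 1.5-fold higher at 0.96 (0.08 to 1.92), and Il15ra was lower at -0.78 (-2.11 to 0.35) on 23 and 9 UMIs. Tbx21, the T-bet factor that drives Cxcr3, was at -0.01 (-0.53 to 0.49). Among other homing receptors, the integrin gene Itga1 was at 0.85 (0.26 to 1.46), Itga4 at -0.28 (-0.69 to 0.11) and Ccr7 at -0.27 (-0.69 to 0.12). Dpp4, which encodes a protease that trims CXCR3 ligands, gave 23 UMIs in each library, and Adam10 was at 0.80 (0.26 to 1.36) and Adam17 at 0.57 (-0.21 to 1.39). Of 13 type I interferon-stimulated genes 11 were 1.5-fold higher in T cells, with a median of 1.07, Ifi44 at 1.95 and Mx1 at 1.40. Of 12 interferon-gamma-responsive genes in T cells 1 was higher by that fold, Iigp1 at 0.68 (0.00 to 1.38), and 0 lower, with a median of 0.14. Irf7 was at 1.03 (0.70 to 1.37).

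Across 14 points, the 2 libraries of 7 classes, other genes followed the members' levels. On log2(CPM + 1), Cxcl9 was most like Ifitm3 (Pearson r 0.97), Il13ra1 (0.94) and Marcks (0.94) among 8739 genes. Cxcl10 was most like Klf4 (0.96), Idh2 (0.95) and Phf11d (0.93), and Cxcl16 like Mpeg1, Ctsh and Pilrb2 (each 0.97). Cxcr6 was most like Gzmk (0.98), Faah (0.98) and Lat (0.96), and Cxcr3 like Cnot1 (0.90), Cd3e (0.88) and 2310001H17Rik (0.88). Points of 1 class share a cell type, and points of 1 library share its depth, so these values describe the pattern over classes.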

How the data were processed

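Counts of UMIs per gene and barcode were deposited by the authors as filtered matrices for 1 control and 1 SHP099 library. Cell Ranger and the build mm10 (GRCm38) are named in the submitters' processing notes, and version 3.1.0 is the one per the file headers. The sources used here do not give the gene annotation.

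Barcodes under 200 genes or over 20% mitochondrial UMIs were dropped. Scrublet, run per library in scanpy 1.11.5, called 264 (3.32%) and 198 (2.51%) doublets, which were removed. The libraries were clustered jointly, with no integration step, on 2000 variable genes, 30 components and 15 neighbours (Leiden, resolution 1.0, seed 1). Each cluster took the marker list with the highest score over the 25th percentile of clusters, if at least 3 markers were found in 10% of cells at 2 times the other clusters. Clusters with Xist below 0.1 of the median over clusters formed a class of their own. Class names rebuilt in this way may differ from those of the study. T and NK cells were clustered again alone. Subclusters 0 and 4 took no name, and the name that subcluster 7 took by score, naive or memory T, is not used because B cell genes lead it.

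CPM is the sum of a gene's UMIs over the cells of a class in a library, scaled by that class's total, with an exact Poisson interval. Log2 ratios used a prior of 0.5 CPM, and their exact conditional intervals leave it out. Shares have exact binomial intervals, and drawing cells down to 2000 UMIs left out shallower cells: 319 and 320 phagocytes, 197 and 197 T cells and 77 and 30 Xist-negative cells. UMIs of a cell are not independent samples of a condition, and cells are not replicates. The ratio step was checked on simulated data.

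Named genes were the 5 members, marker genes, Ifng, Dpp4, Adam10 and Adam17, members of 6 gene lists that were among the 2 highest, the 2 lowest or past 1.5-fold at 10 CPM or more, and the 3 genes most like each member. Others were named after their values were seen, and some list members are not reported here. The members, lists and rules were chosen with earlier results of these data known. Positions came from GENCODE M21. Alternatives covered clustering, class rule, weighting, depth, scaling, prior and cell filters. Other tools were matplotlib 3.10.9, python-igraph 0.11.9, scikit-learn 1.9.0, scipy 1.17.1, anndata 0.12.19, pandas 2.3.3, numpy 2.4.6 and Python 3.11.15.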

Additional observations from a re-analysis of the deposited data

Results flagged for a closer look

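Some log2 ratios of SHP099 over control went opposite ways in different classes or clusters of the same libraries. None of these differences was tested. The Cxcl9 ratio was 1.11 higher in Xist-negative cells (0.11) than in dendritic cells (-1.01). Between Xist-negative clusters 10 (0.40) and 11 (-1.73) it differed by 2.13. The Cxcl10 ratio was 1.44 higher in T cells (0.89) than in dendritic cells (-0.54). The T cell level was low, at 56.3 and 105.0 CPM, and the part of RNA from other cells in it was not tested. The ratio was 1.24 higher in Xist-negative cluster 12 (0.39) than in cluster 14 (-0.85). The Cxcl16 ratio was 0.52 higher in phagocyte cluster 18 (0.20) than in cluster 7 (-0.33).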

How the results depend on the processing

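Each of 8 log2 ratios was recomputed under 16 alternatives, of which leaving out shared barcodes and leaving out doubtful clusters were added after the data were seen. The sign held in 16 of 16 for the 3 ligands in phagocytes and both receptors in T cells, and in 14 of 16 for each ligand in Xist-negative cells. In T cells Cxcr3 ranged from 1.19 to 1.63 and Cxcr6 from 0.0870 to 0.63. With clusters weighted alike, Cxcl9 was at -1.13 and Cxcl10 at 0.27 in phagocytes, Cxcl9 at -0.45, Cxcl10 at -0.13 and Cxcl16 at 0.72 in Xist-negative cells, and Cxcr6 at 0.63 in T cells. With classes set by each cell's own markers, Cxcl10 was at 0.31 and Cxcl16 at -0.30 in phagocytes. In Xist-negative cells Cxcl9 was then at -0.40, Cxcl10 at -0.12 and Cxcl16 at 0.12. That rule gave classes of other sizes, with 3329 control and 3799 SHP099 phagocytes and 2320 and 1622 Xist-negative cells. With each cell counted alike, Cxcl10 was at 0.47 in phagocytes and Cxcl16 at -0.17 in Xist-negative cells. In that class drawing cells down gave Cxcl10 0.16 and Cxcl16 -0.0908, scaling by the median ratio gave Cxcl10 0.14, and a prior of 5 CPM gave Cxcl16 0.16. The causes were not tested. Without a filter on low levels, 19.9% of T cell genes were 1.5-fold higher and 18.8% lower, and 6.46% and 3.26% of phagocyte genes. At 50 CPM or more the T cell shares were 4.73% and 1.41%. No paired analysis was possible because each group has 1 library. Depth limits Cxcr3 most, at 54 and 88 UMIs in all.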
